A study of Homo sapiens with 8 samples.

Results

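Receptor tyrosine kinases are cell surface receptors with a ligand-binding outer part, a single membrane span and an inner kinase domain. In textbook terms a growth factor or a membrane-bound ligand brings receptors together, the kinase domains phosphorylate each other and docking proteins relay the signal to the RAS, PI3K and STAT pathways, after which ubiquitin ligases, phosphatases and suppressor proteins end it. In liver, MET is the receptor of hepatocyte growth factor, FGFR4 works with the coreceptor KLB as the receptor of the bile acid hormone FGF19, and EGFR and the insulin receptor INSR are prominent hepatocyte receptors.

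Transcripts of 51 receptor tyrosine kinase genes were followed through 85 probes, which were all probes whose 1 gene symbol in the platform annotation was that of a listed receptor, out of 31741 probes and 18336 named genes on the array. The genes fall into 18 families, and 22 of them had further probes beside 1 probe for each of the other 29. Total RNA came from HepG2 and PLC5 (PLC/PRF/5), a pair of established human liver cancer lines, grown in DMEM with heat-inactivated serum. Each line was sampled as an untreated control and after 10 µM GSK343, an inhibitor of the histone H3 lysine 27 methyltransferase EZH2, with 2 Cy5 arrays in each of the 4 groups. The titles and the design text give an exposure of 16 h, the treatment protocol gives 6 h, and no solvent is named for the control. The labels do not say whether replicates were separate cultures, so p-values measure only the spread between these arrays, and fewer cells expressing a gene cannot be told apart from less RNA per cell.

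The deposited medians of the arrays ran from 226 to 552 and were higher in PLC5 than in HepG2, so intensities are given here after quantile normalization over the 8 arrays. Arrays of 1 group correlated at 0.984 to 0.989 over all probes, control and treated arrays of a line at 0.978 to 0.987 and arrays of different lines at 0.887 to 0.903. Without normalization the median probe was 0.50 (log2) higher in treated than in control HepG2, 0.11 higher in treated PLC5, and 0.86 higher in the PLC5 control than in the HepG2 control. Transcripts of EZH2, the target of the compound, passed the test in neither line (HepG2 log2 change -0.32, adjusted p = 0.117, and PLC5 log2 change -0.53, adjusted p = 0.0810, limma), and the array does not read the enzyme's activity. All 9 measured hepatocyte markers of 10 listed reached 64 in every array, although 8 of them were lower in PLC5 and ALB, serum albumin, stood at 706 and 786 there against 140643 and 150765 in HepG2. Markers of other cell types were dim in part only. The leukocyte markers PTPRC and CD3E, the fibroblast marker DCN and the neural marker ELAVL4 lay below 64 in all arrays, while 4 of 6 leukocyte, 4 of 6 fibroblast and stellate, 3 of 5 neural and 5 of 6 endothelial markers reached 64 in all arrays. CD14 and LYZ had mean intensities of 3846 and 9194 in untreated HepG2, ACTA2 one of 17848 there, and SNAP25 one of 10843 in untreated PLC5.

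Messenger RNA of most receptors was measurable. No detection call was used, so an intensity below 64 is called dim, as a description only. For 37 of the 51 genes the brightest probe, which stands for the gene here, had a mean of 64 or more in all 4 groups. Another 9 reached it in some groups (INSRR, KIT, FGFR2, PTK7, MST1R, TIE1, EPHA1, EPHA5 and EPHB2). The remaining 5 were dim in all groups, namely CSF1R and FLT3, receptors of blood cell growth factors, the neurotrophin receptor NTRK3, the WNT5A receptor ROR2 and the ephrin receptor EPHA4.

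In HepG2, AXL, EPHA2 and PDGFRB were lower and EPHA1 and ERBB2 higher with GSK343. A gene was called when limma's adjusted p (two-sided, Benjamini-Hochberg over all 31741 probes) was below 0.05. The 5 called genes were 9.80% of the 51, against 8.80% of all genes called in this comparison (5.35% higher and 3.45% lower), so the share is near the background. Over probes, 9 of 85 were called, 2 higher and 7 lower, against 8.10% of all probes (4.85% higher and 3.25% lower). Without normalization the split was 7 genes higher and 2 lower (9 and 2 probes), and with median centring 1 gene higher and 4 lower (1 and 6 probes). The median log2 change was -0.03 over the receptor genes and -0.01 over all genes. For 30 receptor genes the treated and control arrays did not overlap, 13 higher and 17 lower, where 29.2% of all genes were higher and 30.9% lower without overlap.

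AXL, a receptor of the TAM family that binds the bridging ligand GAS6, read 1085 and 919 in the HepG2 controls and 364 and 380.0 with GSK343. Both treated arrays lay well below both controls. The fall was 2.69-fold (log2 change -1.43 ± 0.14, SE, n = 2 arrays per group, 95% interval -1.74 to -1.11, adjusted p = 0.00143, limma). It was present in the deposited intensities too, at 679 and 523 against 300.0 and 339, although those of treated HepG2 were higher over the array as a whole. The other TAM receptors, TYRO3 and MERTK, were not called, with log2 changes of -0.23 and -0.03.

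EPHA2, a receptor of A-type ephrins that also signals without ligand, read 4603 and 4793 in the HepG2 controls and 2133 and 2146 with GSK343. The replicates lay close together and the groups far apart. The fall was 2.20-fold (log2 change -1.13 ± 0.11, SE, n = 2, 95% interval -1.38 to -0.89, adjusted p = 0.00139, limma). The calls of AXL and EPHA2 held under every alternative that was run, with adjusted p up to 0.0171 for either gene.

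The sequences before the start sites of these 2 genes are shown because they carried the largest called changes on brightest probes. They were also the receptors called for the difference between the lines, a call that for EPHA2 did not hold without any 1 of the 8 arrays. Each is the 250 bases upstream of a RefSeq start (GRCh38.p14), written 5′ to 3′ on the strand of the gene, with matches to any searched motif on either strand in capitals. AXL has 2 windows, at chr19:41218973-41219222 and chr19:41226505-41226754 (both plus strand), and EPHA2 lies at chr1:16156070-16156319 (minus strand).
AXL, first start: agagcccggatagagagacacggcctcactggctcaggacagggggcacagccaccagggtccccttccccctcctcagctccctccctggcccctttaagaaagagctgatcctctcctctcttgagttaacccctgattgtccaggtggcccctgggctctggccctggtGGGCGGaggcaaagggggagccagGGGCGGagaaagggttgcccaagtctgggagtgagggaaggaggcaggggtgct
AXL, second start: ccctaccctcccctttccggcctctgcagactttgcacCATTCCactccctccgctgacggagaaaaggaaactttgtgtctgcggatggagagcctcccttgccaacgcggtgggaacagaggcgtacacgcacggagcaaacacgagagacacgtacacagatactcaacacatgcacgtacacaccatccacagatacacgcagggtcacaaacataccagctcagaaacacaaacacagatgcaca
EPHA2: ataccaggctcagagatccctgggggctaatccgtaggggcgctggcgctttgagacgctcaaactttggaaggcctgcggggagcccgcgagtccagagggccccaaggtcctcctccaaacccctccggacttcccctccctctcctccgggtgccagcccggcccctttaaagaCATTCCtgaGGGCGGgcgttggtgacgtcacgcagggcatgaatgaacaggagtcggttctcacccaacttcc
The motifs searched were the GC box GGGCGG, the AP-1 site TGANTCA, the TEAD site GGAATG, the CCAAT box CCAAT, the TATA box TATAAA and the EGR1 site GCGGGGGCG. The window of the first AXL start held 2 GC boxes, that of the second held 1 TEAD match, and the EPHA2 window held 1 GC box and 1 TEAD match. Of all 35116 windows in the table, 42.6% held a GC box, 11.9% a TEAD match, 6.57% an AP-1 match, 32.0% a CCAAT box, 10.7% a TATA box and 4.72% an EGR1 match. Among 78 windows of the 47 receptor genes found in the table, 49 held a GC box and 7 a TEAD match. The PDGFRB window held a GC box and a CCAAT box, the ERBB2 window an AP-1 match and a CCAAT box, and the EPHA1 window 5 GC boxes, 2 CCAAT boxes and an EGR1 match that overlaps GC boxes. A match describes letters only, and no binding or histone mark was measured.

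PDGFRB, the PDGF receptor typical of pericytes and stellate cells, read 1506 and 1738 in the HepG2 controls and 995 and 908 with GSK343. The groups did not overlap, and the fall was 1.70-fold (log2 change -0.77 ± 0.15, adjusted p = 0.0229, limma). The call was lost without normalization (-0.27, adjusted p = 0.421), with a floor of 64 (adjusted p = 0.0550), without the intensity trend (adjusted p = 0.0528) and without HepG2 control 2, GSK343 array 1 or GSK343 array 2 (adjusted p = 0.116, 0.0806 and 0.117). PDGFRA, its sister receptor, had a log2 change of -0.77 ± 0.21 that missed the threshold (adjusted p = 0.0590, limma). Of the 6 fibroblast and stellate markers, 1, ACTA2, was higher in treated HepG2 and none lower, and their summed intensity was 20118 to 20440 in the controls and 26899 to 27307 with GSK343. ACTA2 made up most of that sum, and without it the sum was 2374 to 2489 in the controls and 1839 to 1882 with GSK343, with uncalled log2 changes of -0.45 for COL1A1 and -0.43 for COL1A2. Of the 6 endothelial markers 1, ESAM, was lower, and their sum was 4824 to 5943 in the controls and 2901 to 3048 with GSK343. Without ESAM the endothelial sum was 1219 to 1435 in the controls and 1649 to 1757 with GSK343, and CDH5 had an uncalled log2 change of 0.72 (adjusted p = 0.0540). The part of these marker levels in the result was not tested.

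EPHA1, an ephrin receptor of epithelial cells, read 937 and 1052 in the HepG2 controls and 1689 and 1925 with GSK343. ERBB2, the ligand-less partner of the other ErbB receptors, read 2713 and 2832 against 4116 and 3814. In both genes the treated arrays lay above the controls, by 1.82-fold for EPHA1 (log2 change 0.86 ± 0.17, adjusted p = 0.0201, limma) and 1.43-fold for ERBB2 (0.52 ± 0.11, adjusted p = 0.0276). Neither call survived the loss of any of the 4 HepG2 arrays (adjusted p = 0.0584 to 0.114 for EPHA1 and 0.0945 to 0.142 for ERBB2). EPHA1 was also lost with median centring (adjusted p = 0.305) and ERBB2 without the intensity trend (adjusted p = 0.0583).

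**Figure D1:**
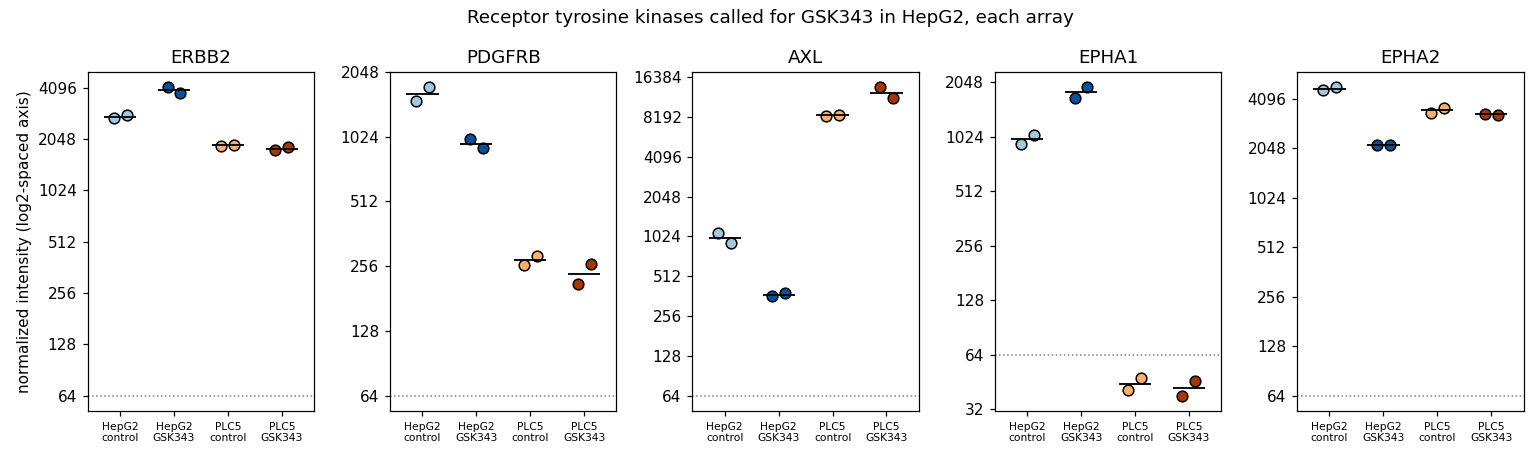
Quantile-normalized intensity (log axis) of the 5 receptor genes called in HepG2, with 1 point per array in the 4 groups, a bar at each group mean and a dotted line at 64. AXL falls in HepG2 from 1085 and 919 to 364 and 380.0 and lies at 8329 to 13768 in PLC5, while EPHA1 lies below 64 in all 4 PLC5 arrays.

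Further probes of 4 genes were called in HepG2 where the gene's brightest probe was not. The second probe of MET read 1304 and 1243 in the controls and 789.8 and 829 with GSK343 (log2 change -0.65 ± 0.12, adjusted p = 0.0162, limma). The brightest MET probe read 10505 and 10175 against 8609 and 8624, without overlap but with a smaller log2 change of -0.26 ± 0.10 (adjusted p = 0.121). On the normalized scale both MET probes thus read lower in both treated arrays, and 1 of them was called. Without normalization the log2 change of the brightest MET probe was 0.10, so its direction depends on the scaling.

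In FLT4, a receptor of lymphatic endothelium, 1 probe read 389 and 411 against 252 and 208 (log2 change -0.80 ± 0.15, adjusted p = 0.0191, limma), while its brightest probe had a log2 change of 0.11 (adjusted p = 0.630). The remaining FLT4 probe had an uncalled log2 change of -0.30. The probes of ERBB3, a neuregulin receptor with a weak kinase, disagreed in sign. One of them read 1622 and 1558 against 1106 and 1022 (-0.58 ± 0.12, adjusted p = 0.0258), whereas the others had log2 changes of 0.24 and 0.38 that were not called. None of the MET, FLT4 and ERBB3 calls held without normalization (adjusted p = 0.638, 0.509 and 0.803), nor without 1 or more of the HepG2 arrays. A dim ERBB4 probe was also called lower, but its deposited intensities lay between -8 and 10 in all 4 HepG2 arrays, so no change is given for it.

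Among the 22 genes with further probes, the sign of the HepG2 change differed between probes in 12 and of the PLC5 change in 11. In 4 genes only some probes were called in HepG2, and none had opposite calls.

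**Figure D2:**
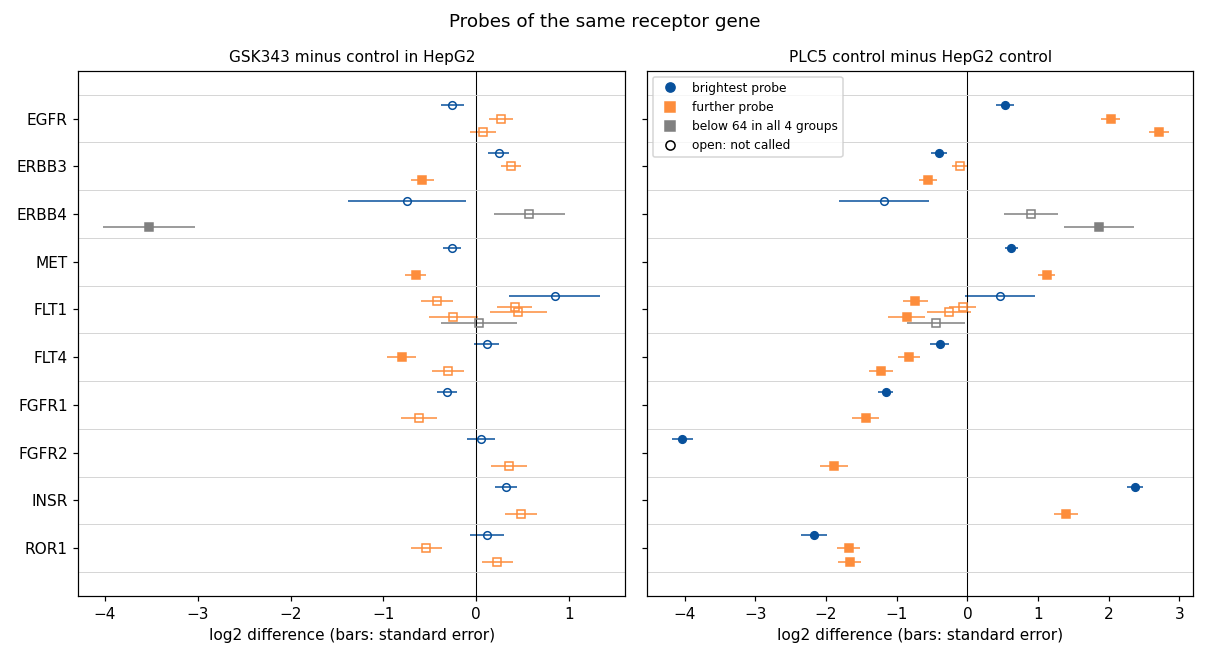
Log2 difference of every probe of 10 receptor genes that have further probes, for GSK343 against control in HepG2 (left) and for the PLC5 control against the HepG2 control (right), with standard errors as bars and filled symbols for called probes. On the left the probes of ERBB3 and FLT4 lie on both sides of 0 and those of MET at -0.26 and -0.65, and on the right the probes of MET, EGFR and INSR all lie above 0.

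On their brightest probes the other 46 receptors were called in no GSK343 comparison. FGFR4 is the clearest case of a bright receptor with a narrow interval. It read 78979.5 and 82038 in untreated HepG2, 83072 and 80177 after GSK343, 53211 and 57261 in untreated PLC5 and 49688 and 52952 after GSK343. The groups overlapped in HepG2 and not in PLC5, where both treated arrays lay below both controls. Its log2 change had 95% intervals from -0.18 to 0.22 in HepG2 and from -0.30 to 0.09 in PLC5. Log2 changes in HepG2 were -0.31 to 0.08 over the 4 FGF receptors and -0.31 to 0.32 over the insulin receptor family, with none called. EGFR, the receptor of EGF and TGF-alpha, had log2 changes of -0.26 (adjusted p = 0.235) in HepG2 and -0.33 (adjusted p = 0.286) in PLC5. The HepG2 value was 0.23 without normalization, and the further EGFR probes had uncalled HepG2 changes of 0.27 and 0.08. A fall of EGFR in HepG2 is thus not shown.

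Replicates of some bright probes disagreed, and those genes were therefore measured with little precision. FLT1, a VEGF receptor, read 2350.3 and 639.6 in the HepG2 controls, and ERBB4 read 161 and 833 in the PLC5 controls. The standard errors of their log2 changes were 0.49 and 0.64, against 0.09 for FGFR4. ROR2 had a log2 change of 1.18 ± 0.34 in HepG2 (adjusted p = 0.0665, limma) but was dim in all groups, and EPHB2, a receptor of B-type ephrins, one of 0.68 ± 0.21 (adjusted p = 0.0830).

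In PLC5, no receptor passed the test with GSK343. None of 85 probes and 0 of 51 genes were called by limma, where 0.870% of all probes and 1.07% of all genes were. At an unadjusted p below 0.05 there were 10 of 85 receptor probes, 6 higher and 4 lower, where 14.5% of all probes were (6.89% higher and 7.58% lower). The same threshold gave 7 of 51 genes, 6 higher and 1 lower, where 16.1% of all genes were (7.88% and 8.20%), so neither count stands above the background. No alternative setting called any receptor probe. The median log2 change was 0.02 over the receptor genes and -0.01 over all genes. Treated and control arrays did not overlap in 11 genes that were higher and 10 that were lower, against 22.8% of all genes in each direction.

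The lowest adjusted p among the receptors in PLC5 was that of AXL, which read 8329 and 8551 in the controls and 13768 and 11376 with GSK343. Both treated arrays lay above both controls, in the opposite direction to HepG2, but the log2 change of 0.57 ± 0.14 (95% interval 0.26 to 0.88) missed the threshold (adjusted p = 0.109, limma). ALK, a receptor best known from fusions in lymphoma and lung cancer, read 333 and 422 against 526 and 662 (0.66 ± 0.17, adjusted p = 0.131). MET read 16212 and 15635 against 19270.1 and 20556 (0.32 ± 0.10, adjusted p = 0.169). On these brightest probes the treated arrays lay above the controls in all 3 genes. The second MET probe went the other way in PLC5, with 2656 and 2880.5 in the controls and 2423 and 2647 with GSK343 (log2 change -0.13, adjusted p = 0.689).

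EPHA2 in PLC5 read 3326 and 3610.4 in the controls and 3302 and 3248 with GSK343, a log2 change of -0.08 with a 95% interval from -0.33 to 0.16. This interval does not reach the -1.13 measured in HepG2. For PDGFRB the log2 change was -0.21 (adjusted p = 0.590), for ERBB2 -0.06 (adjusted p = 0.861) and for the dim EPHA1 -0.07 (adjusted p = 0.890).

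**Figure D3:**
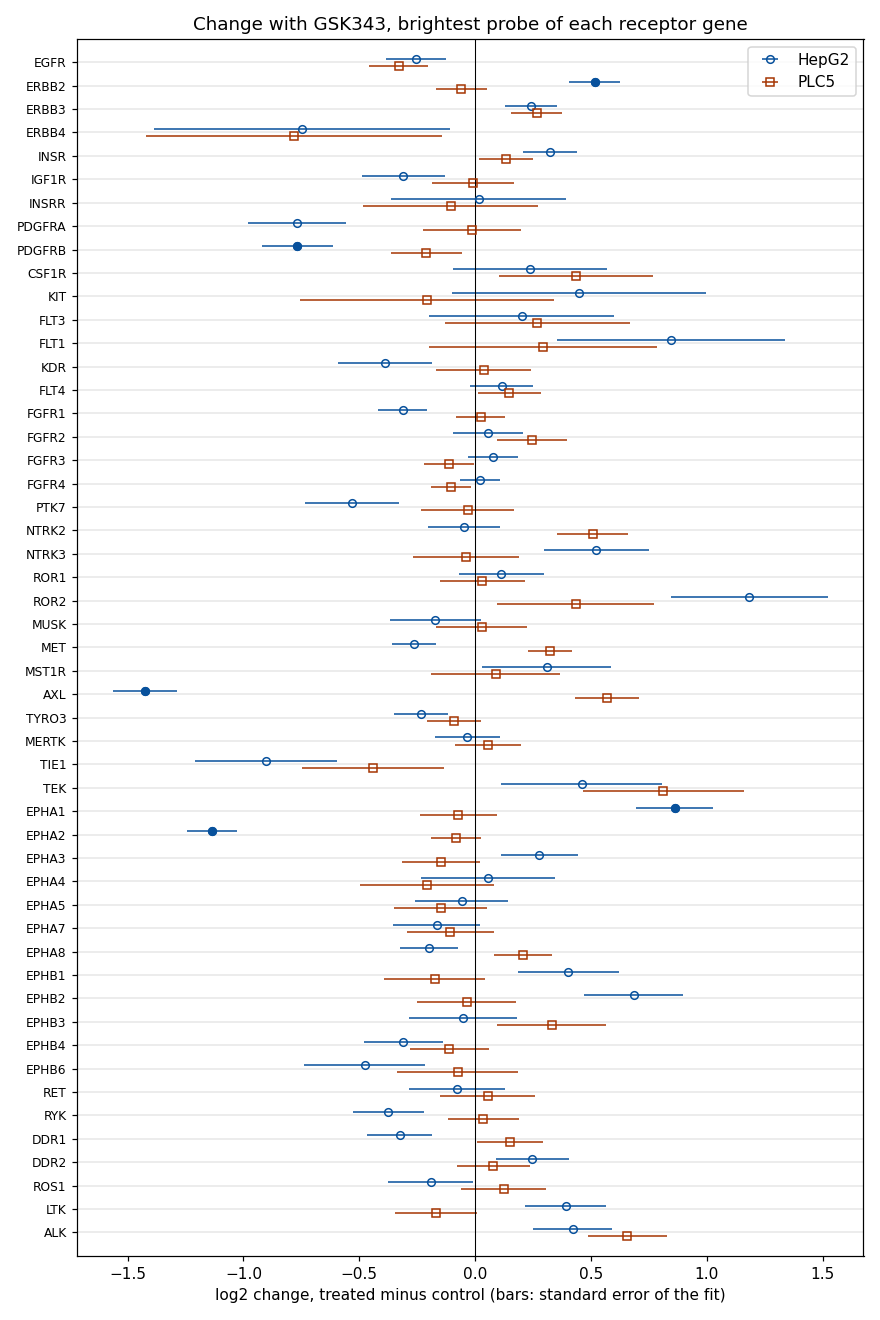
Log2 change with GSK343 (horizontal axis) of the brightest probe of each of the 51 receptor genes, 1 row per gene, with circles for HepG2, squares for PLC5, standard errors of the fit as bars and filled symbols for called genes. The filled symbols are the 5 genes called in HepG2, and AXL lies at -1.43 in HepG2 and 0.57 in PLC5.

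The GSK343 change was also compared between the lines directly, as the PLC5 change minus the HepG2 change. This difference was called for 2 receptor genes and 2 probes, AXL and EPHA2, both with the higher change in PLC5, which is 3.92% of the receptor genes against 0.840% of all genes (0.436% higher) and 2.35% of the receptor probes against 0.696% of all probes (0.328% higher). At an unadjusted p below 0.05 there were 11 of 51 receptor genes, 8 higher and 3 lower, near the 18.5% of all genes (8.67% higher and 9.82% lower). The median difference was 0.09 over the receptors and 0.00 over all genes.

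For AXL the difference was 1.99 ± 0.19 on the log2 scale (adjusted p = 0.00664, limma). It was called without any single array (adjusted p = 0.0117 to 0.0425) and lost only without the intensity trend (adjusted p = 0.0658). For EPHA2 it was 1.05 ± 0.15 (adjusted p = 0.0331). That call was lost without any 1 of the 8 arrays (adjusted p = 0.0645 to 0.119), without normalization (0.66, adjusted p = 0.188), with median centring (0.97, adjusted p = 0.0660) and without the trend (adjusted p = 0.113).

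For the other genes called in HepG2 the difference missed the threshold, with values of 0.56 for PDGFRB (adjusted p = 0.241), -0.93 for EPHA1 (adjusted p = 0.110) and -0.57 for ERBB2 (adjusted p = 0.130). ERBB2 passed it with a floor of 64 (adjusted p = 0.0484). A response in 1 line alone is thus not shown for these 3 genes. For MET the difference was 0.58 ± 0.13 (adjusted p = 0.0909).

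The untreated lines differed in many receptors. Between the controls 31 of 51 genes were called, 60.8% against 58.5% of all genes, so this share too is near the background, and 50 of 85 probes were called against 55.3%. Of the 31 genes 6 were higher and 25 lower in PLC5, where 26.8% of all genes were higher and 31.6% lower. Without overlap between the controls 13 receptor genes were higher and 29 lower, against 35.9% and 42.9% of all genes. The median log2 difference was -0.46 over the receptor genes and -0.09 over all genes. The split depends on the scaling, since the lines differed in overall brightness: it was 19 higher and 6 lower without normalization, 5 and 21 with median centring, and 21 and 10 with quantile normalization within each line.

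Only 11 genes were called in the same direction under all 4 scalings. AXL, EGFR, EPHA7, INSR and MET were higher in PLC5, and EPHA1, EPHB4, FGFR2, PDGFRB, PTK7 and ROR1 were lower. Another 5 of the 31, EPHA2, EPHA8, ERBB2, ERBB3 and FLT4, were called in the opposite direction under another scaling.

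**Figure D4:**
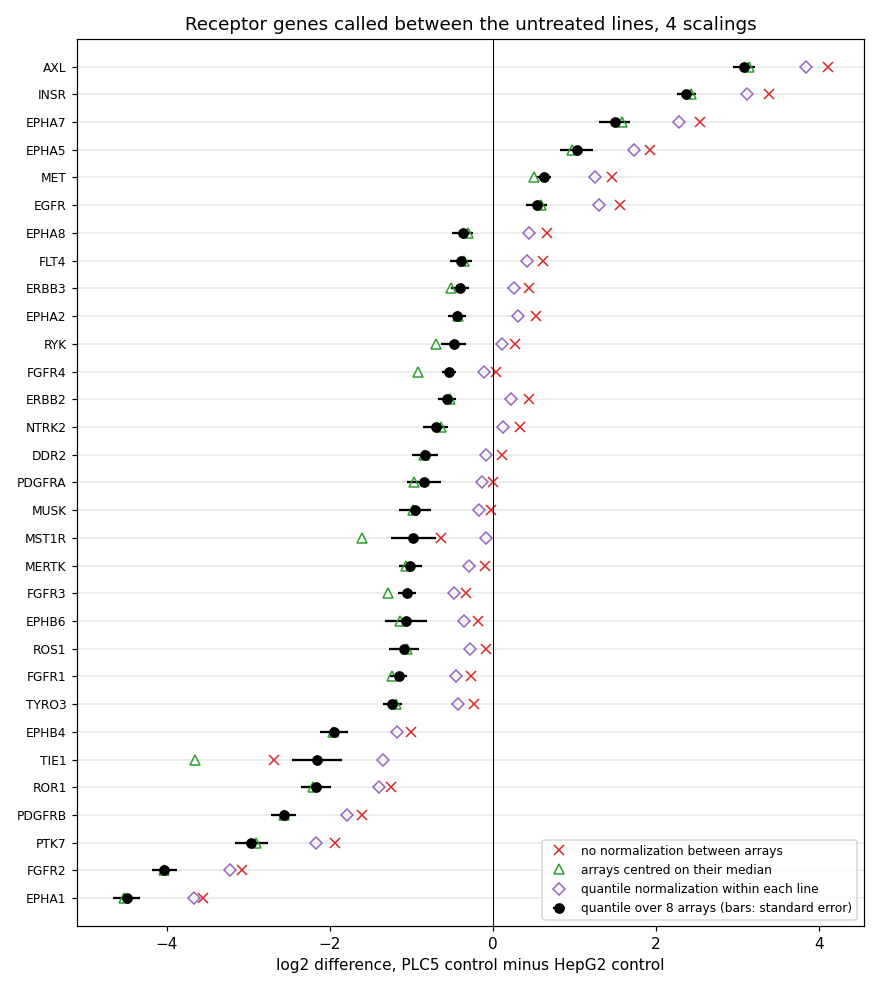
Log2 difference between the PLC5 and HepG2 controls for the 31 receptor genes called between the lines, with 1 marker for each of 4 scalings and standard errors as bars. The 11 genes called alike under all 4 keep their side of 0, while markers of ERBB2 and EPHA2 lie on both sides.

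Among receptors higher in PLC5, AXL read 8329 and 8551 there against 1085 and 919 in HepG2, 8.45-fold more (log2 difference 3.08 ± 0.14, adjusted p = 1.66e-07, limma). INSR, the insulin receptor, read 9795 and 9899 against 1939 and 1868, or 5.17-fold more (adjusted p = 3.37e-07), and its second probe differed by 1.39 on the log2 scale. For both genes the lines were far apart relative to the spread of replicates.

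EPHA7, a receptor of A-type ephrins, read 3646 and 2655 in PLC5 against 986 and 1238, 2.82-fold more (adjusted p = 0.000160, limma), and its dimmer second probe differed by 3.31 (log2). MET differed by 0.62 and 1.12 on its probes, and EGFR by 0.54, 2.03 and 2.71. The direction was thus shared by all probes of these 3 genes, and the size was not.

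Among receptors lower in PLC5, EPHA1 read 40.6 and 47.6 there against 937 and 1052 in HepG2 (log2 difference -4.50 ± 0.17, adjusted p = 4.99e-08, limma). FGFR2, a receptor of FGF7 and FGF10 in epithelia, read 50.1 and 57.9 against 886 and 878 (-4.03 ± 0.15, adjusted p = 5.33e-08), and its second probe differed by -1.89. PTK7, a WNT coreceptor without kinase activity, read 45.0 and 62.8 against 437 and 396 (-2.97 ± 0.20). All 3 were dim in the PLC5 controls, so the size of these fitted log2 differences rests on values near the background. Against the limit of 64 the HepG2 controls were at least 15.5-fold (EPHA1), 13.8-fold (FGFR2) and 6.50-fold (PTK7) higher.

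PDGFRB read 259.9 and 286 in PLC5 against 1506 and 1738 in HepG2, a 5.94-fold lower level (adjusted p = 1.17e-06, limma). ROR1, a WNT5A receptor, read 144 and 133 against 630.4 and 616, 4.51-fold lower, with its further probes at -1.68 and -1.67 (log2). EPHB4, the receptor of ephrin-B2, read 1066 and 924 against 4568 and 3216, 3.86-fold lower. In each of these genes both PLC5 controls lay below both HepG2 controls.

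TIE1, a receptor of endothelial cells, read 34.8 and 24.1 against 117 and 142 (log2 difference -2.15 ± 0.31, adjusted p = 0.000333), and the call was lost without normalization (adjusted p = 0.116) and with median centring (adjusted p = 0.0598). TIE1 too was dim in the PLC5 controls. Against the limit of 64 its HepG2 controls were at least 2.01-fold higher. Of the 6 endothelial markers 1 was higher and 2 lower in PLC5, and their sum was 1389 to 1441 there against 4824 to 5943. Without ESAM, which carried most of that gap, it was 1144 to 1187 against 1219 to 1435. The part of these markers in the result was not tested. TYRO3 read 892 and 888 in the PLC5 controls against 2068 and 2126 in HepG2, and FGFR1 read 4340 and 4365 against 9694 and 9694. TYRO3 and FGFR1 were thus 2.36-fold and 2.23-fold lower in PLC5, and neither call held without normalization (adjusted p = 0.386 and 0.239).

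By family, all 4 FGF receptors were called lower in PLC5. FGFR2 was called so under all 4 scalings, FGFR1 and FGFR3 read lower under all 4 but were not called without normalization, and FGFR4, at -0.54, turned to 0.04 without normalization. Of 12 ephrin receptors 2 were higher and 5 lower. Of the TAM receptors AXL was higher, and TYRO3 and MERTK lower, at -1.24 and -1.02. Neither TYRO3 nor MERTK was called without normalization, where MERTK was at -0.10. MERTK was not called with normalization within each line either (-0.30). In the insulin receptor family INSR was called. IGF1R, the receptor of insulin-like growth factors, was not called on its brightest probe (-0.26, adjusted p = 0.239, limma). That probe was called higher in PLC5 without normalization, at 0.59. The further IGF1R probe was called lower in PLC5 (-0.64, adjusted p = 0.00163).

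The genes that feed and relay the receptor signal were counted beside the receptors. Of 60 measured ligands of 64 listed, 6 were higher and 1 lower with GSK343 in HepG2, of 37 adaptors 2 and 1, of 31 negative regulators 2 and 4, and of 19 coreceptors and sheddases 1 and 1. Their median log2 changes were 0.04, 0.04, -0.06 and 0.08. These counts stand beside the 8.80% of all genes called. Without normalization, which raises the median of treated HepG2, the counts were 17 higher and 0 lower, 12 and 0, 6 and 0, and 6 and 0.

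Among the ligands in HepG2, PDGFD, an activator of PDGF receptor beta, read 55.6 and 62.2 in the controls and 162 and 188 with GSK343 (log2 change 1.57 ± 0.17, adjusted p = 0.00228, limma). Its controls were dim, and its further probe, also dim, was not called (0.60, adjusted p = 0.260). EFNA3, an A-type ephrin, read 228 and 237 against 416 and 530.1 (1.01 ± 0.16, adjusted p = 0.0102). PGF, a ligand of FLT1, and NRTN, a ligand of the RET complex, rose by 0.93 and 0.77 on the log2 scale. The EFNA3 call was lost without GSK343 array 2 (adjusted p = 0.0650), that of PGF without GSK343 array 1 (0.0501) and that of NRTN without any 1 of the HepG2 arrays (0.0578 to 0.102). The other called ligands, named after their values were seen, were VEGFB and EFNA4, which were higher, and AGRN, the ligand that acts on MUSK through LRP4, which was lower.

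SH2B2, an adaptor of the insulin receptor, read 16.4 and 10.4 in the HepG2 controls and 98.5 and 112 with GSK343. All controls were dim and both treated arrays were above them (log2 change 3.01 ± 0.23, adjusted p = 0.000591, limma), a size that rests on the dim controls. PIK3R3, a regulatory subunit of PI3K, rose by 0.93 on its brightest probe (adjusted p = 0.0178) and its further probe had an uncalled log2 change of 0.21. Its call was lost without any 1 of the HepG2 arrays (adjusted p = 0.0586 to 0.0905). PIK3CB, a catalytic subunit, fell by 0.48 (adjusted p = 0.0483), but the value was 0.02 without normalization and the call was lost without any 1 of the 8 arrays (adjusted p = 0.0542 to 0.224).

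Among the negative regulators SOCS1, SOCS2 and SOCS3, suppressors of cytokine and growth factor signalling, were lower in treated HepG2, by log2 changes of -0.64, -0.79 and -0.61 (adjusted p = 0.0186, 0.0280 and 0.0319, limma). HGS, which sorts ubiquitinated receptors to lysosomes, was lower by a log2 change of -0.57 (adjusted p = 0.0226). None of these 4 calls held without normalization (adjusted p = 0.317 to 0.698), nor without any 1 of the HepG2 arrays. The phosphatases PTPN2 and PTPRJ, named after their values were seen, were called higher, at 0.57 and 0.56.

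KLB, the coreceptor of FGFR4, read 8915 and 8220.4 in the HepG2 controls and 16048 and 12958 with GSK343 (log2 change 0.75 ± 0.13, adjusted p = 0.0126, limma), and its further probe was called as well (1.02, adjusted p = 0.00257). The call of the brightest KLB probe was lost without HepG2 control 2 or GSK343 array 1 (adjusted p = 0.0800 and 0.0762). FGFR4 itself was not called. NRP1, a coreceptor of VEGF receptors, read 1952 and 1874 against 978 and 1026 (-0.93 ± 0.13, adjusted p = 0.00680). Its further probes, at -0.06 and -0.53, were not called, and the call was lost without normalization (adjusted p = 0.147).

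In PLC5, EFNA3 was higher (632 and 709 against 1393 and 1181, log2 change 0.94 ± 0.16, adjusted p = 0.0389, limma), DUSP6, a phosphatase of ERK, was higher by 0.73 ± 0.13 (adjusted p = 0.0422) and SDC4, a heparan sulfate coreceptor of FGF receptors, was lower by a log2 change of -0.66 ± 0.12 (adjusted p = 0.0450). They were the called genes of the 4 lists in PLC5. The counts were 1 of 60 ligands, 0 of 37 adaptors, 1 of 31 negative regulators and 1 of 19 coreceptors and sheddases, beside 1.07% of all genes. Each call was lost without any 1 of the 8 arrays, with log2 changes of 0.82 to 1.07, 0.64 to 0.84 and -0.72 to -0.62. For the difference between the lines the counts were 1 of 60 ligands, 1 of 37 adaptors and 0 in the other lists, beside 0.840% of all genes. The difference between the lines was called for PDGFD (-1.67 ± 0.24, adjusted p = 0.0322) and SH2B2 (-3.05 ± 0.32, adjusted p = 0.00968), both with the lower change in PLC5. It was also called for the further KLB probe (-0.90 ± 0.16, adjusted p = 0.0490), a call lost without the trend (0.134) and without any 1 array (0.0712 to 0.167). The PDGFD difference was lost without any 1 array (adjusted p up to 0.121). That of SH2B2 was lost with a floor of 64 (-0.75, adjusted p = 0.150), without the trend (0.0715) and without HepG2 GSK343 array 2, either PLC5 control or PLC5 GSK343 array 2 (0.0507 to 0.127).

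**Figure D5:**
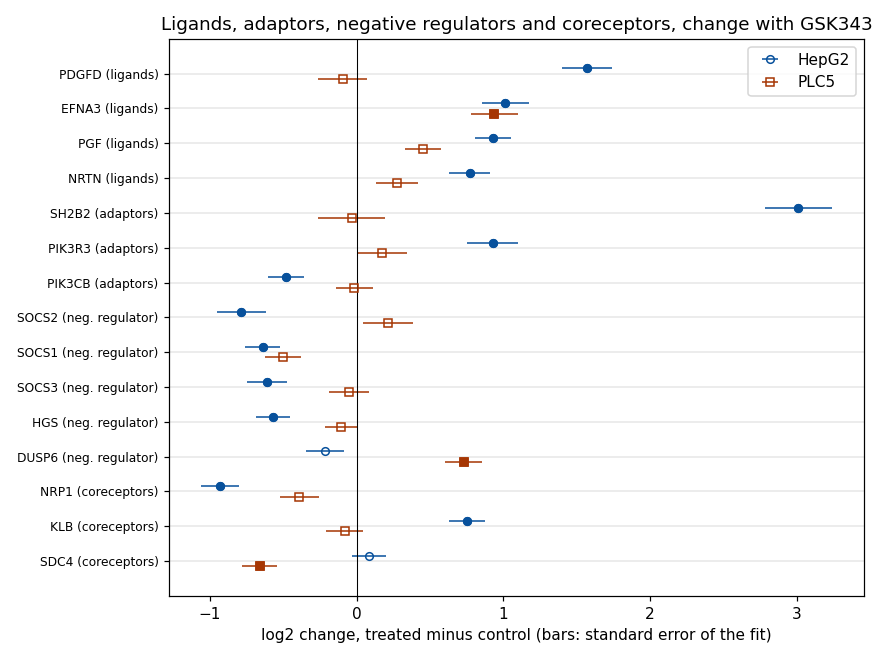
Log2 change with GSK343 (horizontal axis) of the ligands, adaptors, negative regulators and coreceptors named for HepG2 or PLC5, 1 row per gene, with circles for HepG2, squares for PLC5, standard errors of the fit as bars and filled symbols for called genes. SH2B2 lies at 3.01 and NRP1 at -0.93 in HepG2, and EFNA3 is filled in both lines.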

How the data were processed

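The deposited intensity values, 1 per probe and array for 31741 probes, were whole numbers on a linear scale. Some were at or below 0 and array medians differed, so a background had apparently been subtracted and no normalization between arrays was visible. Per the labels' protocols, total RNA was extracted with TRIzol and amplified into Cy5-labelled antisense RNA. The sources used here do not give the scanner, its software or the background method, and no detection calls were used.

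From the deposited intensities, log2 values were computed here after quantile normalization across the 8 arrays, with a floor of 1. The model, from limma 3.58.1 run in R 4.3.3, had a mean for each group (lmFit, then eBayes with an intensity trend and 4 residual and 4.75 prior degrees of freedom). Tests were two-sided, with Benjamini-Hochberg adjustment over all probes and calls at 0.05. All errors after ± are standard errors of that fit, and folds and log2 changes are on the normalized scale. The fit was tested on simulated data for the HepG2 comparison, with 50 probes changed by each of several sizes. Of those shifted by 0.5 (log2) it called 2, and of those shifted by 1 it called 29. Shifts of 1.5 and 2 were called for 40 and 47 probes. Of all 131 calls, 13 were false. Small shifts were thus mostly missed in the simulation. Its changed probes were all drawn from the brighter 50% of probes, so dim probes were not tried. In the data 2572 probes were called in HepG2, far more than in the simulation, so the unadjusted p needed for a call was less strict there. The simulated shares therefore do not carry over to the data. A receptor without a call is not shown to be unchanged. The number of arrays limits the precision.

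Gene symbols came from the platform annotation, and receptor probes were taken by them unchanged. For the counts over all genes, the gene lists and the markers, older symbols were updated to the current RefSeq symbol where only 1 matched. Of all probes 24740 had 1 symbol, 977 several and 6024 none, and each gene was read on its brightest 1-symbol probe. Upstream sequences came from RefSeq (GRCh38.p14). The receptors and the gene lists were chosen with earlier results of these data known. By rule, array values are given for receptors called with GSK343 and for the 12 largest called line differences, and up to 4 called genes per list and comparison are named. Other receptors given with values were chosen after these were seen. Alternatives were other scalings, floors, a pseudocount of 16, filters on dim probes, other eBayes settings, a replicate block, fits on the compared arrays and leaving out each array.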

Additional observations from a re-analysis of the deposited data

Results flagged for a closer look

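The change with GSK343 differed between HepG2 and PLC5 for 2 receptor genes when the difference itself was tested in limma. For AXL the PLC5 change exceeded the HepG2 change by 1.99 on the log2 scale (adjusted p = 0.00664), with both treated HepG2 arrays below and both treated PLC5 arrays above their controls. For EPHA2 it exceeded it by 1.05 (adjusted p = 0.0331), with treated arrays below their controls in both lines. Among the genes that feed and relay the signal, the difference was called for PDGFD (-1.67, adjusted p = 0.0322), SH2B2 (-3.05, adjusted p = 0.00968) and the further KLB probe (-0.90, adjusted p = 0.0490), each with the lower change in PLC5. The brightest KLB probe was not called for it. None of these difference calls held without the intensity trend (limma, adjusted p = 0.0658 for AXL to 0.134 for the KLB probe). For AXL this was the only loss. The calls of EPHA2, PDGFD and the KLB probe were also lost without any 1 of the 8 arrays. That of SH2B2 was lost with a floor of 64 and without HepG2 GSK343 array 2, either PLC5 control or PLC5 GSK343 array 2.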

How the results depend on the processing

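With 2 arrays per group, calls near the threshold rest on single arrays, dim probes rest on the background subtraction, and the direction of some smaller line differences depends on the scaling. The count of receptor probes called in HepG2, 9 as reported, was 3 at an absolute log2 change of 1 or more and 3 to 10 with 1 array left out (5, 3, 5 and 3 without the HepG2 arrays in turn). In PLC5 it was 0 under all alternatives. The count for the difference, 2 as reported, was 1 without normalization, 1 with median centring, 4 with a floor of 64, 0 without the trend and 1 without any of the arrays. The count between the controls, 50 as reported, was 32 without normalization, 28 without the dimmest 50% of probes, 30 at an absolute log2 difference of 1 or more and 44 to 50 with 1 array left out.

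Other receptors than those followed through all alternatives also turned, such as the brightest probes of MET and EGFR in HepG2 (0.10 and 0.23 without normalization). Among the followed gene results, signs turned for the line difference of ERBB2 (0.44 without normalization and 0.22 with normalization within each line) and of EPHA2 (0.53 and 0.31). In HepG2 they turned for PIK3CB (0.0188 without normalization) and for the dim ERBB4 probe (0.50 without normalization and 0.0087 with median centring). They also turned for uncalled values in PLC5, for ERBB2 (0.0307 without normalization) and for the dim EPHA1 (0.0361 without PLC5 control 2 and 0.0572 without GSK343 array 1, in a range from -0.229 to 0.0572 with 1 array left out). The causes were not tested. Over 61 called gene results and their alternatives, 1005 kept their call and direction, 189 lost the call, 7 turned and 18 moved in size.

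The replicate numbers are shared by the groups, but arrays of the same number did not deviate together (correlation of replicate differences -0.22 to -0.01), so they were not taken as pairs. A fit with the replicate block called 7 receptor probes in HepG2, 0 in PLC5, 1 for the difference and 50 between the controls. Under it the EPHA2 difference had an adjusted p of 0.0746 and ERBB2 in HepG2 one of 0.0568. With the numbers of the treated HepG2 arrays crossed, chosen after seeing the data, the counts were 10, 0, 2 and 52.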

Other observations

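Ligands, adaptors and regulators of the receptors also differed between the untreated lines. EREG, a ligand of EGFR and ERBB4, was dim in the HepG2 controls, at 36.1 and 13.1, and stood at 10308 and 12012 in PLC5. IRS2, a docking protein of the insulin receptor, read 9748 and 10843 in PLC5 against 161 and 263 (log2 difference 5.64, adjusted p = 9.03e-08, limma). Its further probe, dim in all groups but the HepG2 control, pointed the other way, with an uncalled log2 difference of -1.90. SOCS2 was higher in PLC5 by 4.92, while SOCS1 was lower, at -4.21. NRP1 was higher by 3.46. MST1, the ligand of MST1R, and GPC3, a liver cancer glypican, were lower in PLC5, at -4.31 and -3.72. These 7 genes kept their direction and call under all alternatives that were run, and IRS2 differed by 1.87 over the median of its probes.

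By list, 13 ligands were higher and 21 lower in PLC5, 16 and 10 adaptors, 13 and 10 negative regulators and 4 and 8 coreceptors or sheddases, beside 26.8% of all genes higher and 31.6% lower. The 34 called of 60 measured ligands lie near the 58.5% of all genes called. The other lists had 37 adaptors, 31 negative regulators and 19 coreceptors and sheddases measured. Their called shares were above that value, which was not tested. Without normalization the splits were 24 and 6, 21 and 1, 21 and 3, and 7 and 4, so the direction of some smaller differences depends on the scaling.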
